A study of Mus musculus with 15 samples.

Results

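Axon guidance ligands and receptors are cell surface and secreted proteins that steer growing axons, and most of them also act on blood vessels, connective tissue and tubular epithelia. Slits bind Robo receptors, netrins bind Unc5 proteins and related receptors, class 3 semaphorins bind neuropilins that signal together with plexins, and other semaphorins bind plexins directly. Ephrins and Eph receptors are both held in membranes and signal between touching cells, and teneurins are large membrane proteins that join neighbouring cells. The genes described here are the rows of the count table whose mouse symbol belongs to these families: Slit, Robo, netrin (Ntn), Unc5, neuropilin (Nrp), semaphorin (Sema3 to Sema7), plexin (Plxn), ephrin (Efn), Eph and teneurin (Tenm). By symbol, 74 of 41591 rows were taken. Unc50 and Nrp match the spelling of the rule but carry the names of other genes, so 72 of the 74 are guidance genes. In all, 68 of the 74 had enough counts to be tested, among them Unc50 and Nrp, of which none passed in any comparison. The 6 that did not, Epha5, Epha6, Epha8, Epha10, Robo3 and Sema4f, lay below 1 CPM in every library (CPM stands for counts scaled to a common library total with TMM factors).

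The samples are whole epididymides, the coiled ducts in which sperm mature, from 15 mice aged 7 weeks whose strain label reads Brown Swiss. There were 5 wild-type animals (WT), 5 carrying 1 intact copy of Plag1 (HET, Plag1 -/+) and 5 with none (KO, Plag1 -/-), with 1 library per animal. Plag1 encodes a zinc finger transcription factor, and the comparisons address how the organ differs with the number of its intact copies. The labels do not say how the allele was made or whether its loss is limited to a cell type.

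Total counts ran from 20304440 to 41957608 per library. Plag1 itself lay between 11.9 and 14.0 CPM in WT, between 8.11 and 11.8 CPM in HET and between 6.99 and 9.36 CPM in KO, so the KO libraries did not overlap WT (log2 fold change -0.61 ± 0.10, edgeR adjusted p = 0.00493). The labels do not say which exons the mutation removes, so this level is a limited check of the genotype. Some libraries stood apart before any guidance gene was considered. In HET-693 and KO-738, 1.49% of counts fell on ribosomal RNA genes, against at most 0.607% elsewhere, and 8 skeletal muscle markers summed to 4348 CPM in KO-739 against at most 94.2 CPM elsewhere. Of the epididymal epithelium, 13 principal cell markers summed to 27700 to 47030 CPM, of which Crisp1 alone had a mean of 28770 CPM in WT. No gene of this list, of 7 clear cell or of 6 basal cell markers was at 0 in all libraries. The clear cell marker Slc26a4 was near 0, with a mean of 0.0975 CPM in WT, and had too few counts to be tested.

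Which guidance genes the organ expresses was read from the WT libraries as CPM per kb of exon, so that genes of different length can be set side by side. Of the 72 guidance genes, 37 reached a mean of 1 CPM per kb and 6 reached 10. Semaphorins and plexins led. Sema3c, a secreted semaphorin, had the highest level at 38.0 ± 2.99 CPM per kb (SD, n = 5), followed by the plexin receptor gene Plxnb2 at 25.5 ± 2.72 and the membrane semaphorin gene Sema4a at 24.1 ± 1.95. The WT ranges of Plxnb2 (22.0 to 28.7) and Sema4a (20.8 to 25.7) overlapped, whereas that of Sema3c (33.6 to 41.2) lay above both. The ephrin gene Efna1 (11.7 ± 0.653), the secreted semaphorin gene Sema3b (11.1 ± 1.29), the netrin gene Ntn1 (10.03 ± 1.01) and the Eph receptor gene Ephb6 (9.98 ± 1.42) came next, with ranges that overlapped. Ephb6 is an Eph receptor whose kinase domain lacks activity.

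**Figure D1:**
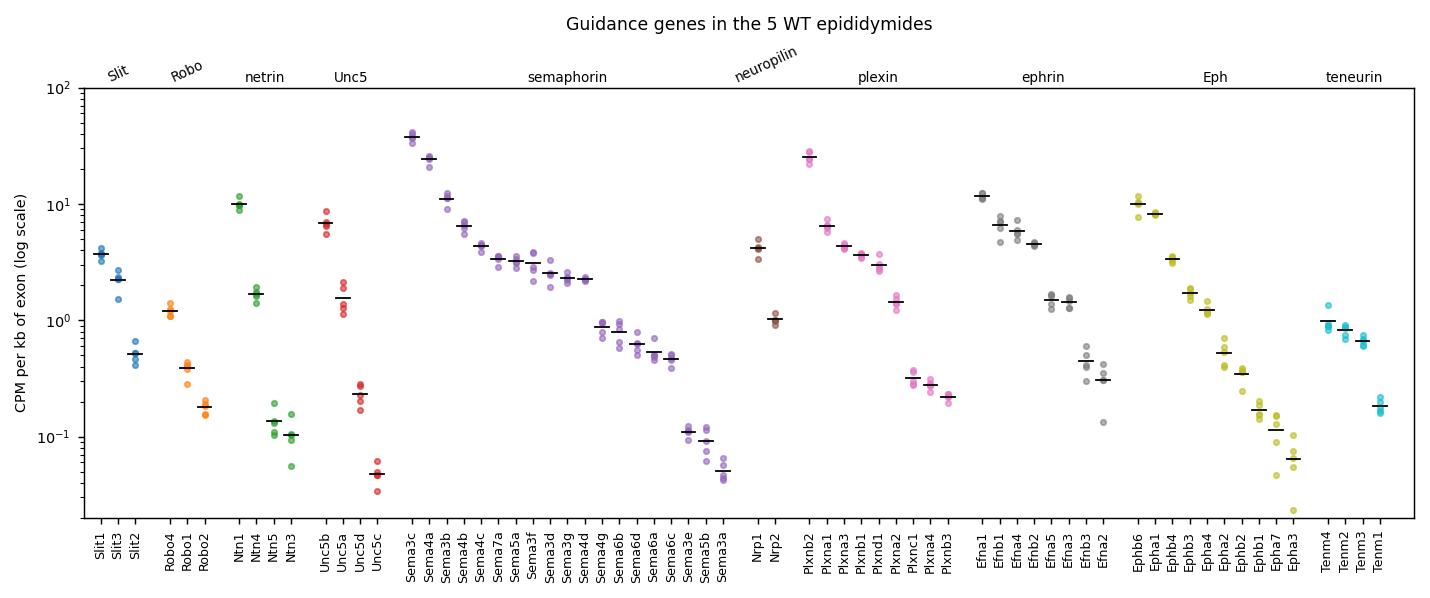
Level of each of the 66 tested guidance genes in the 5 WT libraries, in CPM per kb of exon on a log axis, by family. Points are libraries and black bars their mean, and Sema3c at 38.0, Plxnb2 at 25.5 and Sema4a at 24.1 CPM per kb stand highest.

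Within the other families the order was also clear in most places. Slit1 (3.73 ± 0.356 CPM per kb) lay above Slit3 (2.23 ± 0.433) and Slit3 above Slit2 (0.517 ± 0.0934), with no overlap between neighbours. Among the Robo genes Robo4 led at 1.21 ± 0.132, ahead of Robo1 at 0.386 ± 0.0596 and Robo2 at 0.179 ± 0.0222. Robo4 is the Robo receptor of blood vessel endothelium. The netrin receptor gene Unc5b, also known from endothelium, stood at 6.90 ± 1.15 and the next member, Unc5a, at 1.56 ± 0.422. Nrp1 held 4.20 ± 0.595 and Nrp2 1.02 ± 0.0833. The teneurins Tenm4 (0.978 ± 0.216), Tenm2 (0.818 ± 0.0990) and Tenm3 (0.663 ± 0.0562) overlapped each with the next, and Tenm1 (0.184 ± 0.0234) lay below them. These orders rest on the union of all GENCODE exons of a gene, 25433 bases for Slit2, and how much of that length is used in this tissue was not tested.

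The leading members of 6 families did not pass the test in any comparison. In CPM, and in the order WT-709, WT-719, WT-720, WT-723, WT-726, then HET-692, HET-693, HET-715, HET-718, HET-735, then KO-694, KO-695, KO-696, KO-738, KO-739 that all lists below follow, Sema3c held 265, 288, 240, 270 and 294, then 244, 310, 280, 291 and 276, then 264, 271, 240, 226 and 268. Plxnb2 held 214, 188, 190, 221 and 170 CPM in WT, 195, 169, 176, 191 and 180 in HET and 191, 209, 184, 183 and 138 in KO. The 3 genotypes overlapped for both genes. Efna1 held 20.6, 20.7, 22.6, 20.3 and 22.7 CPM in WT, 19.3, 20.6, 21.6, 24.0 and 19.6 in HET and 19.9, 23.2, 20.3, 19.8 and 20.9 in KO. Ephb6 held 37.6, 38.2, 39.6, 43.8 and 29.1 CPM in WT, 34.9, 32.7, 24.9, 34.2 and 31.9 in HET and 32.01, 38.6, 39.5, 32.5 and 22.6 in KO. Both again overlapped across genotypes. Unc5b held 40.7, 42.3, 44.0, 54.2 and 34.4 CPM in WT, 34.8, 34.9, 37.2, 34.9 and 43.8 in HET and 46.5, 44.2, 45.6, 40.1 and 37.1 in KO. Tenm4 held 19.4, 28.5, 17.2, 18.7 and 18.8 CPM in WT, 23.9, 17.6, 16.9, 20.9 and 22.6 in HET and 13.5, 23.6, 27.4, 28.5 and 11.2 in KO, where its spread (SD 8.01) was wider than in WT (SD 4.53). From WT to KO their log2 fold changes ran from -0.19 ± 0.14 (SE) for Ephb6 to 0.03 ± 0.23 for Tenm4.

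In KO against WT, 8 of the 68 tested members rose and 1 fell. Those that rose were Slit3, Robo4, Sema3g, Sema7a, Nrp1, Plxna4, Ephb2 and Tenm3, and the one that fell was Slit1. This is 11.8% higher and 1.47% lower, where 4.40% of all 19388 tested genes were higher and 1.60% lower by the same rule (edgeR quasi-likelihood test, p-values adjusted by Benjamini-Hochberg over all tested genes, threshold 0.05). The median log2 fold change was 0.0954 over the 68 members and -0.0121 over all genes, and 46 of the 68 members had a positive value. The largest change among those that passed was the 1.77-fold rise of Tenm3. In 6 of the 68 members every KO library lay above every WT library (8.82%, against 2.84% of all genes), and in 2 every KO library lay below (2.94%, against 1.37%).

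**Figure D2:**
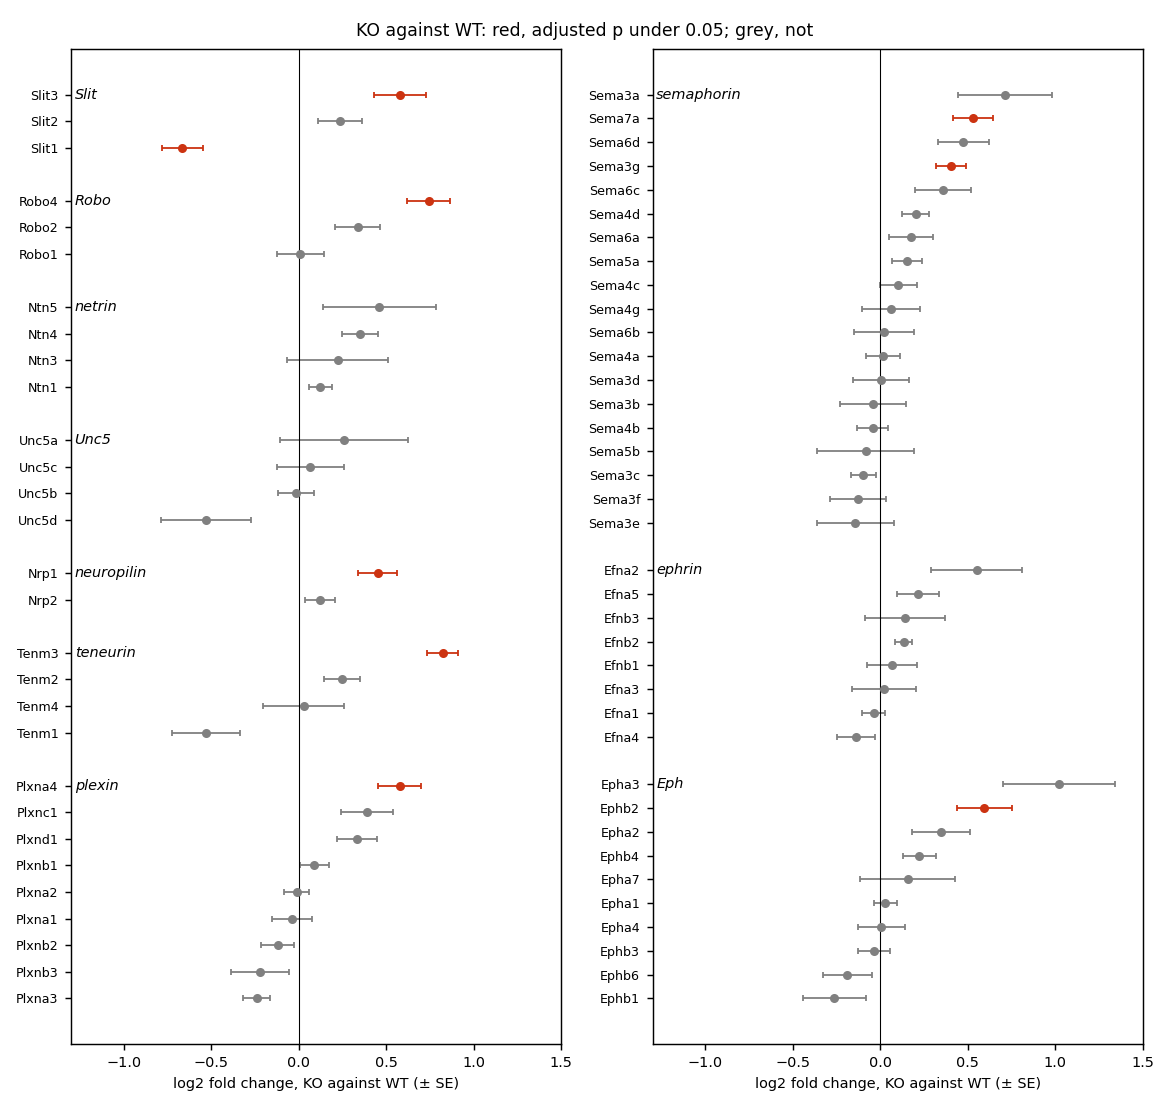
Log2 fold change of KO against WT with its SE (bars) for each of the 66 tested guidance genes, by family, from the fit of all 15 libraries. Red points have an adjusted p under 0.05: Slit1 at -0.66 is the one lower, and Tenm3 at 0.82 and Robo4 at 0.74 are the highest of the 8 above 0.

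The count of higher members depended on single animals. It was 2 without KO-696 (1.33% of all genes were higher in that fit), 3 without WT-723 (1.73%), 5 without WT-719 (2.12%) or WT-720 (2.09%), and 15 without KO-738 (9.75%), so the share over all genes moved with it. In 7 of the 9 changed members KO-738 was the KO library nearest WT. The count was also 2 with the animal number range (below 700, or 700 and above) as a term, where 0.81% of all genes were higher. The number range is uneven over genotypes: 0 WT, 2 HET and 3 KO animals are numbered below 700. When only animals numbered 700 and above were used, which leaves 2 KO libraries, 0 members and 0 genes in all passed. Tenm3 and Robo4 rose and Slit1 fell in every fit that left out 1 library and with the number range as a term.

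In a search chosen after the values were seen, promoters were scanned for letters of the type that PLAG1 binds, a G-rich core followed at a short distance by a run of G. Only cores spelled GGGGC were searched, so a window without a match can still hold a core with other letters. RefSeq (GRCm38.p6) gave windows for 64 of the 74 members, and the 250 bases before each start site listed there were searched on both strands for GGGGCNNNNNNGGG, GGGGCNNNNNNNGGG and GGGGCNNNNNNNNGGG, which can overlap each other. A match was present for 26 of the 64 members (40.6%), for 23.3% of the 14099 tested genes with a window and for 15.6% of all 27025 genes with one. The member windows were also richer in G and C, with a median of 64.0% against 58.0% in windows of tested genes. Of the 9 genes changed in KO against WT, 7 had a window and 2 of these held a match, Nrp1 and Sema7a. Plxnd1, which rose against HET, held more than one. The stretches are shown with the matched letters in capitals, on the strand of the gene, at chr8:128358967-128358996 (plus strand) for Nrp1, chr9:57940026-57940055 (plus) for Sema7a, and chr6:115995047-115995076 and chr6:115995007-115995036 (minus) for Plxnd1. The listed start sites of these 3 genes lie inside the gene spans given below, downstream of the outermost annotated start. The same holds for Ephb2, Robo4 and Tenm3, whose windows held no match. The Tenm3 window, chr8:48674691-48674940 (minus strand), lies far inside a span that ends at 49522824. For Nrp1, Sema7a, Plxnd1, Ephb2 and Tenm3, sequence before the outermost start was not searched. The Robo4 window began at 37401722, before its outermost start at 37401902, so part of that sequence was searched. A match of letters is a description and no evidence of binding.
Nrp1: cggggagGGGGCGGGAGGAAGGGagggaag
Sema7a: aGGGGCGGGGGGGAGGGGCGGGGTGGGGtc
Plxnd1, farther from the start: gtggccgGGGGCGTGGCCCGGGGcgaaagg
Plxnd1, nearer to the start: agctgctGGGGCGGGGAGATGGGctgtggg

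Slit3 and Sema3g, which rose in KO, are shown for contrast: their 250 bases before the start hold no match, although the Slit3 window is the richest of those of the changed genes in G and C (78.8%, against 60.4% for Sema3g). The Slit3 window is chr11:35121206-35121455 (plus strand) and the Sema3g window chr14:31217623-31217872 (plus strand), both ending at the base before the RefSeq start.
Slit3: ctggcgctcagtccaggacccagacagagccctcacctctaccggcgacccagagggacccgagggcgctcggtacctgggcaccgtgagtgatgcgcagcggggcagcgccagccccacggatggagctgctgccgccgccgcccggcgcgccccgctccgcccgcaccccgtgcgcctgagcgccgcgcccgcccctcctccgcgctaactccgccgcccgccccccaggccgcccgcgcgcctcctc
Sema3g: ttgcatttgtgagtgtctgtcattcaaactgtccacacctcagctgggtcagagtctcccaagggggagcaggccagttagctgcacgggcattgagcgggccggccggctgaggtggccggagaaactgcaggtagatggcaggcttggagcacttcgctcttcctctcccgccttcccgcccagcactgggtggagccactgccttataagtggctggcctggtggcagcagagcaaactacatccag

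The Slit ligands moved in opposite directions. Slit1 (NCBI Gene 20562, chromosome 19, 41597824 to 41747275, GRCm38.p6 as for all positions here) fell, Slit3 (20564, chromosome 11, 35121456 to 35708507) rose, and Slit2 did not pass. Slit1 held 21.5, 22.2, 22.5, 25.02 and 19.15 CPM in WT, 17.9, 19.2, 18.6, 21.0 and 17.3 CPM in HET, and 15.9, 13.6, 11.45, 17.85 and 10.9 CPM in KO. Every KO library lay below every WT library, KO-738 was the highest of the KO libraries, and HET overlapped both. Its log2 value fell by 0.66 ± 0.12 from WT to KO (SE, 5 libraries per genotype, edgeR adjusted p = 0.00641). Slit3 held 16.4, 14.4, 13.7, 13.9 and 9.25 CPM in WT, 15.5, 11.9, 11.45, 14.15 and 13.25 CPM in HET, and 22.2, 23.6, 22.5, 14.7 and 18.15 CPM in KO. All KO libraries but KO-738 lay above every WT and HET library. Slit3 rose by 0.58 ± 0.15 against WT (edgeR adjusted p = 0.0336) and by 0.61 ± 0.15 against HET (adjusted p = 0.0475). Slit2 had 13.1 ± 2.38 CPM in WT (SD, n = 5), 15.1 ± 1.87 in HET and 15.4 ± 2.13 in KO, a log2 fold change of 0.24 ± 0.12 from WT to KO.

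The order of the Slits therefore differed between genotypes, which was seen in the values and is given as a description. Per kb of exon, Slit1 stood at 1.34, 1.58, 1.68, 1.85 and 2.12 times Slit3 in the WT libraries and at 1.18, 1.65, 1.67, 1.52 and 1.34 times in HET. In KO the ratio was 0.735, 0.592, 0.522, 1.245 and 0.615. It was below 1 in all KO libraries but KO-738 and above 1 in every WT and HET library. Slit1 kept its call in all 15 fits without 1 library. Slit3 lost it without WT-719, WT-720, WT-723, WT-726, KO-694, KO-695 or KO-696 (log2 fold changes from 0.47 to 0.68 over the 15 fits, adjusted p up to 0.0955), and its value was 0.28 among animals numbered 700 and above. Of 13 principal cell markers 0 passed in KO against WT, with a median log2 fold change of -0.0983. Their sum was 37010 to 44420 CPM in WT and 27700 to 46020 CPM in KO, of which Crisp1 alone gave 25120 to 31090 CPM in WT and 14930 to 30430 CPM in KO. In KO-694, KO-695, KO-696, KO-738 and KO-739 the sum was 37660, 27700, 32450, 46020 and 34800 CPM. KO-695, KO-696 and KO-739, with sums below every WT library, also held the lowest Slit1 levels. In KO-738 the sum lay above every WT library, and Slit1 below every one. Whether Slit1 and this sum are linked was not tested.

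**Figure D3:**
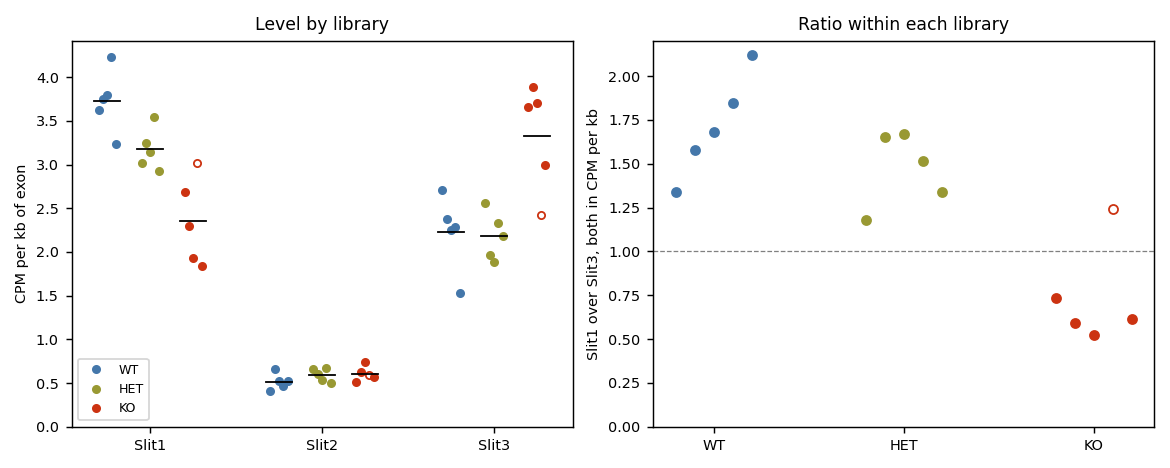
Left, CPM per kb of exon of Slit1, Slit2 and Slit3 in each library by genotype, with the mean as a bar. Right, Slit1 over Slit3 in each library, with a dashed line at 1; KO-738 (open point) stands at 1.245 and the other 4 KO libraries between 0.522 and 0.735.

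Of the Robo genes, Robo4 (NCBI Gene 74144, chromosome 9, 37401902 to 37414023) rose, and Robo1 and Robo2 did not pass. Robo4 held 6.60, 6.32, 7.47, 5.77 and 5.79 CPM in WT, 8.53, 5.75, 5.85, 8.11 and 7.999 CPM in HET, and 9.13, 10.3, 12.3, 10.4 and 11.3 CPM in KO. All KO libraries, KO-738 included, lay above all WT and HET libraries. The rise was 0.74 ± 0.12 against WT (edgeR adjusted p = 0.00493) and 0.56 ± 0.12 against HET (adjusted p = 0.0345). Robo2 had a value of 0.34 ± 0.13 and Robo1 of 0.01 ± 0.13 in KO against WT.

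Among netrins and their receptors none passed in KO against WT. Ntn1 (NCBI Gene 18208, chromosome 11, 68209364 to 68386826), the netrin with the highest level, rose against HET. It held 63.3, 61.5, 61.3, 73.1 and 55.7 CPM in WT, 61.1, 53.4, 53.9, 54.6 and 62.3 CPM in HET, and 68.0, 70.1, 68.5, 65.5 and 71.2 CPM in KO. The KO libraries lay above all HET libraries but within the WT range. The rise against HET was 0.27 ± 0.07 (edgeR adjusted p = 0.0472), against 0.12 ± 0.07 relative to WT (adjusted p = 0.266). The call against HET held in 4 of the 15 fits that left a library out (WT-723, WT-726, HET-692 or KO-738). Ntn4, a netrin of basement membranes, had 0.35 ± 0.10 in KO against WT (adjusted p = 0.0588). The Unc5 receptor genes ran from -0.53 ± 0.26 (Unc5d) to 0.26 ± 0.37 (Unc5a).

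Semaphorins had 2 of 19 tested genes higher in KO against WT and none lower (median log2 fold change 0.0585). Of all genes, 4.40% were higher and 1.60% lower, so counts this small say little about the family. Sema3g (NCBI Gene 218877, chromosome 14, 31217873 to 31230352) encodes a secreted ligand of neuropilins that is known from arterial endothelium. It held 11.8, 10.5, 10.75, 10.2 and 9.58 CPM in WT, 11.7, 10.7, 10.4, 12.4 and 11.35 CPM in HET, and 13.0, 14.5, 16.2, 11.9 and 14.3 CPM in KO. KO lay above WT throughout, with KO-738 just above the highest WT library, and overlapped HET through KO-738 alone. Its rise was 0.41 ± 0.09 (edgeR adjusted p = 0.0161). Sema7a (NCBI Gene 20361, chromosome 9, 57939596 to 57962865), a semaphorin anchored in the membrane by a lipid, held 11.75, 11.6, 11.75, 9.498 and 11.1 CPM in WT, 13.3, 8.64, 11.2, 13.8 and 10.5 CPM in HET, and 14.6, 16.3, 18.0, 14.5 and 17.0 CPM in KO. All KO libraries lay above all others. Sema7a rose by 0.53 ± 0.11 against WT (edgeR adjusted p = 0.0168) and by 0.48 ± 0.11 against HET (adjusted p = 0.0381). Without WT-723 or KO-696 neither Sema3g nor Sema7a passed in KO against WT (adjusted p up to 0.0616 and 0.0581), and with the number range as a term their adjusted p was 0.097 and 0.0682. The remaining semaphorins ran from -0.14 (Sema3e) to 0.71 ± 0.27 (Sema3a, adjusted p = 0.12). In Sema4d the KO libraries also lay above all WT libraries, but its value of 0.20 ± 0.08 had an adjusted p of 0.119.

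Nrp1 (NCBI Gene 18186, chromosome 8, 128358591 to 128505476) encodes a receptor shared by class 3 semaphorins and vascular endothelial growth factor. It held 40.3, 41.8, 41.0, 32.95 and 49.35 CPM in WT, 42.05, 38.6, 45.0, 42.6 and 40.25 CPM in HET, and 51.75, 51.4, 62.2, 45.2 and 70.1 CPM in KO. All KO libraries but KO-738 lay above WT, and all 5 lay above HET. Nrp1 rose by 0.45 ± 0.11 against WT (edgeR adjusted p = 0.0313), with 0.43 ± 0.11 against HET (adjusted p = 0.0587). The call was lost without WT-709, WT-719, WT-720, WT-723, KO-696 or KO-739 (adjusted p up to 0.0864), the last being the library with muscle transcripts and the highest Nrp1 level. Nrp2, the other neuropilin gene, had 0.12 ± 0.08.

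Of 9 plexins, Plxna4 rose against WT, and Plxna4 and Plxnd1 rose against HET. Over all genes 4.40% were higher against WT and 1.61% against HET, so counts this small say little about plexins. Plxna4 (NCBI Gene 243743, chromosome 6, 32144543 to 32588192), a partner of neuropilins in semaphorin signalling, held 4.42, 3.91, 3.39, 4.09 and 3.87 CPM in WT, 4.18, 3.51, 4.55, 4.585 and 3.999 CPM in HET, and 5.84, 5.535, 6.79, 4.45 and 6.75 CPM in KO. KO-738 lay just above the highest WT library and within HET, and the other KO libraries lay above both groups. Plxna4 rose by 0.58 ± 0.12 against WT (edgeR adjusted p = 0.0166) and by 0.50 ± 0.12 against HET (adjusted p = 0.0493). Without KO-696 its adjusted p against WT was 0.0591. Plxnd1 (NCBI Gene 67784, chromosome 6, 115954811 to 115995339), the plexin of developing vessels, held 27.1, 20.1, 22.2, 21.15 and 19.6 CPM in WT, 24.5, 16.5, 17.9, 20.1 and 18.2 CPM in HET, and 27.2, 34.0, 26.5, 25.1 and 25.7 CPM in KO. KO exceeded every HET library, and WT-709 overlapped KO. Plxnd1 rose by 0.51 ± 0.11 against HET (edgeR adjusted p = 0.035), with 0.33 ± 0.11 against WT (adjusted p = 0.0923). It lost the call against HET without HET-693, HET-715, HET-718, HET-735, KO-694, KO-695, KO-696 or KO-739 (adjusted p up to 0.1). Plxna3 was the lowest plexin, at -0.24 ± 0.08 (adjusted p = 0.0724).

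In the Eph system 1 of 10 tested receptors and 0 of 8 ephrins passed in KO against WT. Ephb2 (NCBI Gene 13844, chromosome 4, 136647536 to 136836326), a receptor of B-type ephrins, held 4.57, 4.915, 4.68, 4.49 and 3.14 CPM in WT, 5.65, 4.77, 3.98, 4.37 and 4.43 CPM in HET, and 7.47, 7.86, 7.53, 5.17 and 4.87 CPM in KO. The 3 KO animals numbered below 700 lay above all other libraries, while KO-738 and KO-739 lay within the HET range. Ephb2 rose by 0.59 ± 0.16 (edgeR adjusted p = 0.038). Its value was 0.30 with the number range as a term (adjusted p = 0.282) and 0.21 among animals numbered 700 and above. It was called in 4 of the 15 fits that left a library out (HET-692, HET-715, KO-738 or KO-739). The largest value among the Eph receptors was that of Epha3, 1.02 ± 0.32 (adjusted p = 0.0685), from 0.561 ± 0.255 CPM in WT (SD, n = 5) to 1.13 ± 0.39 in KO, on 5 to 62 counts per library. Ephrin values ran from -0.14 (Efna4) to 0.55 (Efna2), and Efnb2, a ligand of Ephb2 and Ephb4 that marks arteries, had 0.13 ± 0.05 (adjusted p = 0.0977).

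Tenm3 (NCBI Gene 23965, chromosome 8, 48225665 to 49522824) had the smallest p-value of all members. It held 6.18, 7.07, 6.29, 6.795 and 7.58 CPM in WT, 8.44, 7.125, 8.42, 7.39 and 7.05 CPM in HET, and 12.5, 12.2, 12.9, 10.02 and 12.3 CPM in KO. All KO libraries lay above all WT and HET libraries, and KO-738 was the lowest of them. The rise was 0.82 ± 0.09 against WT (edgeR adjusted p = 0.000824) and 0.64 ± 0.09 against HET (adjusted p = 0.0139). Without HET-735 the adjusted p against HET was 0.0537. Tenm1, on the X chromosome, went the other way: it held 3.11, 3.51, 3.86, 2.85 and 2.975 CPM in WT, 3.03, 2.86, 4.58, 4.58 and 3.83 CPM in HET, and 2.52, 1.37, 1.96, 2.82 and 2.66 CPM in KO. Every KO library was below every WT and HET library, by a small margin in KO-738. Its value was -0.53 ± 0.19 against WT (edgeR adjusted p = 0.106) and -0.74 ± 0.19 against HET (adjusted p = 0.0564). Tenm2 had 0.25 ± 0.10 and Tenm4 0.03 ± 0.23.

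**Figure D4:**
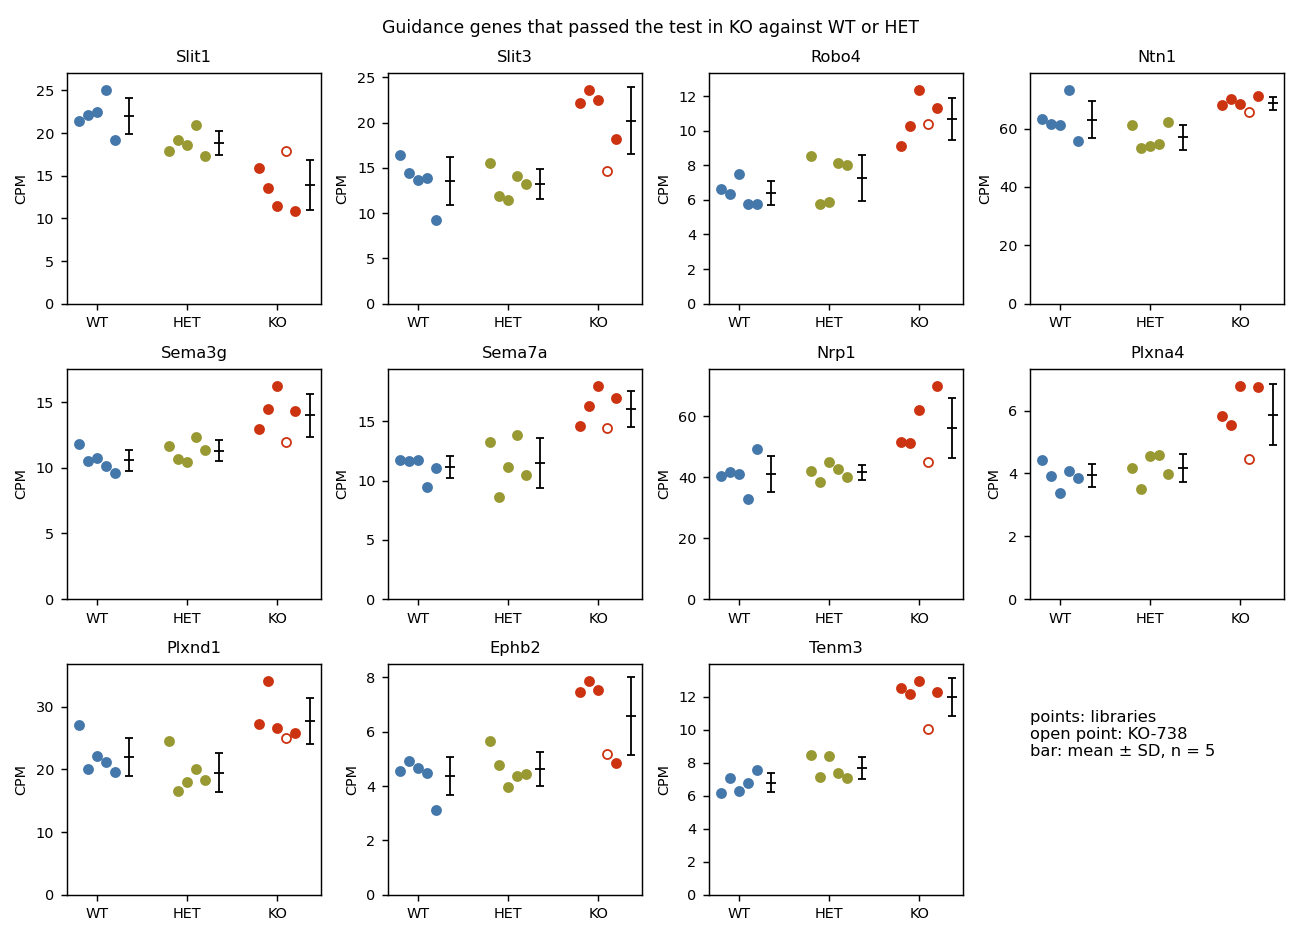
CPM of the 11 members that passed the test in KO against WT or KO against HET, in each library by genotype, with mean ± SD (n = 5) beside the points. Slit1 is lower in all KO libraries than in WT (10.9 to 17.85 against 19.15 to 25.02 CPM), and Tenm3 is higher (10.02 to 12.9 against 6.18 to 7.58 CPM).

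In HET against WT, 0 of the 68 members and 0 of all 19388 genes passed by edgeR. At an unadjusted p under 0.05 there were 5 members, Epha1, Ntn1, Plxnc1, Robo2 and Sema3f (7.35%, against 4.40% of all genes), and DESeq2 and limma voom also called 0 members. No member had all HET libraries above or all below WT (0.717% and 0.325% of all genes did). Slit1 had -0.23 ± 0.12, Tenm3 0.18 ± 0.09 and Robo4 0.18 ± 0.13 there. For 8 of the 9 members changed in KO against WT the HET mean lay between the WT and KO means. These members were picked for a gap between WT and KO, and the share over all genes was not counted. The position of HET is therefore a description and no test of a graded change. It varied: WT, HET and KO means were 41.1, 41.7 and 56.1 CPM for Nrp1 and 22.1, 18.8 and 13.9 CPM for Slit1. When HET was set against the midpoint of WT and KO, 0 members and 0 genes passed, with 11 members (16.2%) and 7.85% of all genes at an unadjusted p under 0.05, and DESeq2 and limma voom called 0 members.

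In KO against HET, 7 of 68 members rose (10.3%, against 1.61% of all genes) and 0 fell (against 0.351%). They were Slit3, Robo4, Ntn1, Sema7a, Plxna4, Plxnd1 and Tenm3. All KO libraries lay above all HET libraries in 7 members, Nrp1, Ntn1, Ntn3, Plxnd1, Robo4, Sema7a and Tenm3 (10.3%, against 2.18% of all genes), and below in 1, Tenm1 (1.47%, against 1.42%). This comparison shares its KO libraries with KO against WT, so the calls in both are not separate evidence. Among members not passing, Slit1 had -0.43 ± 0.12 (edgeR adjusted p = 0.0646). The count depended on single libraries: it was 0 without HET-735, 1 without HET-693, HET-715, HET-718, KO-695, KO-696 or KO-739, 2 without KO-694, 3 without WT-719, 4 without WT-720 and 13 without KO-738. It was 0 in a fit of HET and KO alone. The comparison as a whole moved with these libraries: 0% of all genes were higher without HET-735 or in the fit of HET and KO alone, 0.0154% to 0.148% without HET-693, HET-715, HET-718 or KO-696, 0.744% to 0.881% without KO-694, KO-695 or KO-739, 1.37% and 1.48% without WT-719 and WT-720, and 7.91% without KO-738. Over the 15 fits without 1 library, Tenm3 kept its call in 14, Robo4 in 8, Plxnd1 in 7, Sema7a in 6, Slit3 and Ntn1 in 4 and Plxna4 in 2.

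Markers of other cell types rose in the same libraries. Of 14 fibroblast markers 11 rose in KO against WT, and their summed level spanned 1851 to 2342 CPM (WT), 2069 to 2541 CPM (HET) and 2288 to 4132 CPM (KO, lowest in KO-738). Of 13 tested endothelial markers 9 rose, and the 14 matched ones had sums of 161 to 201 CPM (WT), 165 to 224 CPM (HET) and 227 to 286 CPM (KO). Of 10 macrophage markers 7 rose, with sums of 104.7 to 129 CPM (WT), 124 to 142 CPM (HET) and 128 to 218 CPM (KO). Among 4 tested lymphatic markers 2 rose (20.2 to 36.02 CPM in WT and 26.9 to 40.1 CPM in KO), and among 6 mesothelial markers 3 rose (163 to 252 CPM in WT and 182 to 306 CPM in KO). Most of these sums came from genes that did not pass, Reln (means of 18.7 CPM in WT and 20.6 CPM in KO) and Krt19 (178.0 and 177.6 CPM). The lymphatic genes that rose, Prox1 and Lyve1, had log2 fold changes of 1.37 ± 0.38 and 1.07 ± 0.24. Among mesothelial genes Msln rose by 1.47 ± 0.35, Wt1 by 1.84 ± 0.27 and Upk1b by 0.58 ± 0.10. Nerve and Schwann cell markers had 1 of 10 higher, with sums of 134.7 to 149.7 CPM in WT and 132.5 to 148.7 CPM in KO, and smooth muscle and pericyte markers 1 of 11, at 2779 to 3354 CPM in WT and 3105 to 3175 CPM in KO. Germ cell markers had 2 of 10 higher (37.4 to 90.4 CPM in WT, 42.1 to 208.8 CPM in KO), fat cell markers 1 of 8 (65.2 to 94.7 CPM in WT, 66.9 to 342 CPM in KO), and skeletal muscle markers 0 of 7. Clear cell markers had 1 of 6 lower and basal cell markers 0 of 6 passing. By the same test 4.40% of all genes were higher and 1.60% lower. None of these lists held a marker at 0 in every library. In whole tissue, more cells of a type and more RNA per cell cannot be told apart.

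**Figure D5:**
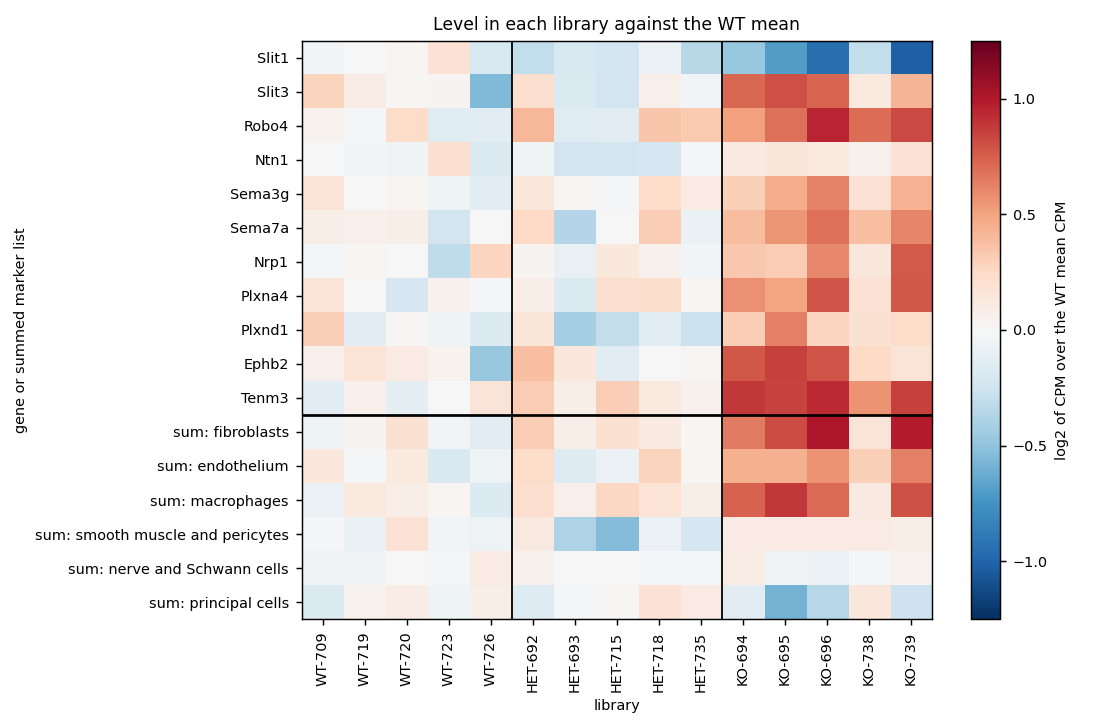
Log2 of the level over the WT mean in each library (columns, by genotype) for the 11 members that passed a test (upper rows) and for the summed markers of 6 cell types (lower rows). KO-738 is the palest KO column in most upper rows and in the fibroblast sum, which was 2288 CPM there and 3201 to 4132 CPM elsewhere in KO.

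Ratios within a library show how far members and markers moved together, with ratios chosen after the values were seen and given without a test. Robo4 stood at 3.27 to 3.72 CPM per 100 CPM of the summed endothelial markers in WT, at 3.33 to 4.27 in HET and at 3.64 to 4.56 in KO, above every WT library in 4 of 5 KO libraries. Per 100 CPM of the same markers, Sema3g stood at 5.36 to 6.30 in WT and 4.99 to 5.95 in KO, Nrp1 at 20.02 to 27.9 in WT and 19.9 to 24.5 in KO, and Plxnd1 at 11.03 to 13.4 in WT and 8.99 to 13.5 in KO. Those 3 ratios overlapped between WT and KO. Per 1000 CPM of the summed fibroblast markers, Tenm3 stood at 2.68 to 4.09 in WT and 3.04 to 4.38 in KO, and Slit3 at 4.997 to 8.41 in WT and 4.496 to 6.93 in KO. On that scale Sema7a stood at 4.77 to 6.01 in WT and 4.20 to 6.32 in KO, Plxna4 at 1.45 to 2.26 and 1.54 to 1.94, and Ephb2 at 1.70 to 2.34 and 1.21 to 2.33. All 5 overlapped between the genotypes. Which cells of the organ made these transcripts was not tested.

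Other genes of the pathway were counted from lists of co-receptors, other cues and intracellular effectors. Of 33 tested co-receptors and other cues, 6 rose in KO against WT (18.2%, against 4.40% of all genes) and 1 fell, with a median log2 fold change of 0.195. The growth factor gene Vegfc rose by 0.85 ± 0.17 (edgeR adjusted p = 0.012), the adhesion molecule gene Cntn2 by 0.92 ± 0.18 (adjusted p = 0.0122), and the vascular growth factor receptor genes Kdr and Flt1, whose products share ligands with Nrp1, by 0.70 ± 0.15 and 0.59 ± 0.15 (adjusted p = 0.0152 and 0.0331). Nell2, whose product is a ligand of Robo3 in the nervous system, rose by 0.96 ± 0.25 (edgeR adjusted p = 0.0347). Its level was low, with means of 0.491 CPM in WT and 0.964 CPM in KO, and Robo3 had too few counts here to be tested. The remaining gene that rose, the vascular growth factor receptor gene Flt4, had 0.63 ± 0.17 (edgeR adjusted p = 0.0363). Of the 6, Vegfc, Kdr, Flt1 and Flt4 thus encode a vascular growth factor or such receptors, and 9 of 13 tested endothelial markers rose as well. The list was chosen with earlier results known, so its share is a description. The one that fell, Flrt3, a ligand of Unc5 proteins, was at -0.57 ± 0.16 (edgeR adjusted p = 0.0445). Flt4 and Flrt3 are named after their values were seen. Of 58 tested effectors, 3 rose (5.17%, near the 4.40% of all genes) and 0 fell, with a median of 0.019, so the list's share was no result about effectors. The 3 were Dpysl3 (0.44 ± 0.08), of the family of semaphorin response mediators, the exchange factor gene Kalrn (0.32 ± 0.08) and the actin-binding gene Ablim3 (1.17 ± 0.22). Their edgeR adjusted p was 0.00781, 0.0283 and 0.00916, and Ablim3 was low, with means of 0.787 CPM in WT and 1.77 CPM in KO. In HET against WT 0 genes of either list passed by edgeR.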

How the data were processed

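The authors deposited raw read counts per NCBI Gene ID, which per the submitters' processing notes came from HISAT2 2.0.5 and featureCounts of Subread 1.4.6p5 on build GRCm38.p6. The strand setting and annotation release are not given in the sources used here. Other genes overlapped 0.818% of the GENCODE exon bases of Nrp1, 0.78% of Plxna4, 1.11% of Tenm3 and 0 of the other members changed in KO against WT. IDs were named by RefSeq (40290 of 41591) or GENCODE (88), and 1213 had no name. Exon length is the union of GENCODE M21 exons.

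All 15 libraries were fitted together with edgeR 4.0.16 (TMM, filterByExpr, robust quasi-likelihood test, 12 residual degrees of freedom) in R 4.3.3. P-values are two-sided, and the 19388 of them were adjusted together by Benjamini-Hochberg (threshold 0.05). SE is the absolute log2 fold change divided by the square root of F. The fit was tested on simulated data. The p-values weigh the difference between genotypes against the spread between these animals. Nothing says that animals of a genotype came from separate litters, and p-values could be too small if litters were shared within a genotype.

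The members and lists were chosen with earlier results of these data known. Libraries are given one by one for members past the threshold in a pairwise comparison and for the leading member of each family. Pathway genes were named by the 5 smallest adjusted p. Alternatives were other scaling factors, filters, DESeq2 1.42.0, limma 3.58.1 voom, fits of 2 genotypes, the animal number range, leaving out libraries with over 1% ribosomal RNA, thinning, and leaving out each library. Tables used Python 3.11.15 and pandas 2.3.3.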

Additional observations from a re-analysis of the deposited data

Results flagged for a closer look

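Among 17 members in 3 genotypes, 51 groups of 5 libraries were searched for a library far from the others, a gap of over 0.71 of the group's range. Chance flags about 1 in 20 groups. This found 5 values. Ephb2 was 3.14 CPM in WT-726 against 4.49 to 4.915 CPM in the other WT libraries. KO-695 held 34.0 CPM of Plxnd1, while the other KO libraries held 25.1 to 27.2 CPM. For Tenm3 the value of KO-738 was 10.02 CPM and the remaining KO values were 12.2 to 12.9 CPM, all above every WT and HET library. Tenm4 was 28.5 CPM in WT-719 against 17.2 to 19.4 CPM in the other WT libraries. Unc5b was 43.8 CPM in HET-735 against 34.8 to 37.2 CPM in the other HET libraries.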

How the results depend on the processing

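No paired analysis was possible because the genotypes share no animal number. In KO against WT the 8 higher members became 3 in a fit of the genotypes compared, 2 with the number range as a term, 0 among animals numbered 700 and above, and 15 without the libraries over 1% ribosomal RNA, and leaving out 1 library gave 2 to 15. Of all genes, 4.40% were higher as reported, 1.3% in the fit of the genotypes compared and 0.81% with the number range. That share was 0 among animals numbered 700 and above and 9.22% without the libraries over 1% ribosomal RNA. The 1 lower member became 2 by DESeq2, 0 among animals numbered 700 and above, 4 without the libraries over 1% ribosomal RNA, and 1 to 4 without 1 library. Of all genes, 1.60% were lower as reported, 3.18% by DESeq2 and 4.76% without the libraries over 1% ribosomal RNA. In KO against HET the 7 higher became 11 by DESeq2, 13 by limma voom, 0 in a fit of the genotypes compared, 4 with the number range as a term, 0 among animals numbered 700 and above, and 11 without the libraries over 1% ribosomal RNA, and 0 to 13 without 1 library. The share of all genes higher was 1.61% as reported, 4.52% by DESeq2 and 5.49% by limma voom. It was 1.38% with the number range and 5.2% without the libraries over 1% ribosomal RNA. In the fit of the genotypes compared and among animals numbered 700 and above it was 0. The 0 lower became 2 by DESeq2, 2 by limma voom, 1 with the number range as a term, 3 without the libraries over 1% ribosomal RNA, 2 after thinning, and 0 to 3 without 1 library. The share of all genes lower was 0.351% as reported, 1.88% by DESeq2 and 4.34% by limma voom. It was 0.49% with the number range, 3.32% without the libraries over 1% ribosomal RNA and 0.309% after thinning. Members with all KO libraries above WT numbered 6 to 13 without 1 library (612 to 1524 of all genes, from 551), and below WT 2 to 3 (318 to 965, from 266). Leaving out a library can only keep or raise these counts. Fits with fewer animals have fewer residual degrees of freedom, and otherwise the cause was not tested. The counts of 0 for HET against WT and against the midpoint held under every alternative run. None of the 11 members that passed a test changed sign in any alternative run for KO against WT or, where it passed there, KO against HET. The signs of members that did not pass were not followed.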

Other observations

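Without KO-738, 15 members were higher in KO against WT by edgeR (9.75% of all genes were higher in that fit) and 4 were lower (5.21%). Added to the 8 reported were Efnb2, Epha3, Ntn4, Robo2, Sema3a, Sema6c and Sema6d. Plxna3, Tenm1 and Unc5d were lower besides Slit1. Without KO-696, the KO library that held the highest Robo4, Sema3g, Sema7a, Plxna4 and Tenm3 levels, Robo4 and Tenm3 were higher and Slit1 was lower, and no other member passed.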
